A study of Mus musculus with 4 samples.

Results

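The genes described here are 10 immediate early genes, Fos, Fosb, Jun, Jund, Ier2, Egr1, Egr2, Egr3, Nr4a1 and Nr4a3, chosen by their symbols from the 11883 genes of the authors' deposited table. They were measured by RNA sequencing in Th2 cells, the T helper cells of type 2 immunity, from lungs of C57BL/6 mice given papain, an allergenic enzyme of papaya, over a chronic course. The cells were sorted by flow cytometry as live CD4+ cells bearing T1/ST2, the interleukin-33 receptor, from lungs digested with collagenase and DNase. Klrg1Cre Gata3(fl/fl) mice, in which Gata3 is flanked by sites for Cre recombinase and a Cre named for Klrg1 is present, gave 2 samples, and Gata3(fl/fl) mice, with the same floxed Gata3 and no Cre, gave 2 samples. They are called Klrg1Cre and control below. No group carried Klrg1Cre without floxed Gata3, so effects of the Cre allele, of Gata3 loss in the sorted cells and of Gata3 loss in other cells cannot be told apart. The table's headers name its groups ILC2 deficient and WT, and the first was taken as Klrg1Cre because it is the genotype with Cre, a link that the labels do not state. Whether the samples came from separate mice is not said, so the spread behind the p-values may be technical only.

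Immediate early genes are switched on within minutes of a stimulus, without new protein synthesis, and their transcripts decay quickly. In T cells they respond to the antigen receptor through MAP kinases and calcium. Fos proteins (Fos, Fosb) pair with Jun proteins (Jun, Jund) to form the transcription factor AP-1. Egr1, Egr2 and Egr3 are zinc finger factors, of which Egr2 and Egr3 also restrain T cell activation. Nr4a1 and Nr4a3 are orphan nuclear receptors that report antigen receptor signalling and limit T cell responses. Ier2 encodes a small nuclear protein of the same rapid programme. The same transcripts are also known to be induced while tissue is digested.

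The deposited values are group means in CPM, reads scaled to the total of a library, and the 4 libraries held between 14564426 and 33379572 reads, as worked out from the steps of those means. The precursor of ribosomal RNA took 67.1% of reads in Klrg1Cre and 51.4% in control, and the other listed genes together took 18.2% in Klrg1Cre and 17.8% in control. Gata3 itself averaged 293.9 CPM in Klrg1Cre and 221.4 CPM in control in the authors' deposited table, which does not check the genotype because exons outside a floxed segment can still be read. The median log2 ratio of Klrg1Cre over control was 0.01 over all genes. For 7 of the 10 genes in Klrg1Cre and 6 in control, only 1 combination of whole reads in both libraries gave the deposited mean, and this combination supplied a value for each library. The libraries go by their size, larger or smaller, because the labels cannot be tied to them. Fosb, Egr2 and Egr3 could not be split in either group and are given as means.

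The upstream sequences of Fos, Egr2 and Nr4a3 are shown because Fos had the smallest p of the genes with higher means in Klrg1Cre, and Nr4a3 and Egr2 the smallest of those with lower means. They are the 250 bases before the RefSeq transcription start on GRCm38.p6, each read 5′ to 3′ on the gene's own strand. Fos lies on the plus strand at chr12:85473640-85473889, Egr2 on the plus strand at chr10:67537619-67537868, from the RefSeq start nearest to that of GENCODE's first-numbered transcript, and Nr4a3 on the plus strand at chr4:48045055-48045304. Capitals mark matches, on either strand, to TGACGT, the core of the cyclic AMP response element, and to the CArG box, the site of serum response factor.
Fos: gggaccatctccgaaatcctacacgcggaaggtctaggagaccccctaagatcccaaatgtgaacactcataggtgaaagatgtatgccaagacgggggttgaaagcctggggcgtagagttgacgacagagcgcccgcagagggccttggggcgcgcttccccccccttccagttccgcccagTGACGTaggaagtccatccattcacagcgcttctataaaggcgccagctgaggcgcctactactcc
Egr2: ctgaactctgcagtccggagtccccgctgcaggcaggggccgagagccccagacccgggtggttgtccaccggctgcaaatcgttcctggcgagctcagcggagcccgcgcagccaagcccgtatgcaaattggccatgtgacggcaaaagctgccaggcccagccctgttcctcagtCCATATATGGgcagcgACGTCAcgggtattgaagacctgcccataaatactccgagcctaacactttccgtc
Nr4a3: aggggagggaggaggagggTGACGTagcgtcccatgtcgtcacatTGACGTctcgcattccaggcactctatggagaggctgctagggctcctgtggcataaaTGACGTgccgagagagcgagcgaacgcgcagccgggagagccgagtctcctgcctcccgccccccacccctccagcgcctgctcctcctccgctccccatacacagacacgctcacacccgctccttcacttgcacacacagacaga

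The Fos window held TGACGT once, beginning 66 bases before the start. In the Egr2 window a CArG box began 72 bases before the start, and 56 bases before it came TGACGT, there read on the opposite strand. The Nr4a3 window held TGACGT at 231, 205 and 147 bases before the start. Of 32851 RefSeq promoter windows of the same length, 6.47% held TGACGT and 1.47% held a CArG box. None of these 3 windows held the AP-1 element TGACTCA, the Egr site GCGNGGGCG or the Nr4a site AAAGGTCA, which stood in 4.46%, 4.70% and 1.34% of all windows. No match overlapped another, and a match is a description of letters, not of binding in these cells. Only these 250 bases were searched, so a motif missing from a window may still lie elsewhere at the gene. The RefSeq table matched 7 of the 10 genes by symbol. The windows of the other matched genes, Fosb, Jun, Jund and Nr4a1, held neither TGACGT nor a CArG box. Those of Fosb and Nr4a1 each held the Egr site GCGNGGGCG, beginning 50 and 60 bases before the start.

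Across the 10 genes means lay in both directions. Fos, Ier2, Fosb and Jund had higher means in Klrg1Cre, and Jun, the 3 Egr and the 2 Nr4a genes had lower means. The median log2 ratio of these 4 higher and 6 lower means was -0.14. None of the 10 passed an adjusted p of 0.05 over all genes in the authors' deposited table, where 0.0589% of all genes did. At an unadjusted p below 0.05 it held 2 of the 10 with higher means and 3 with lower means, against 3.72% and 3.37% of all genes. The 10 genes were chosen with these results known, so their share is a description.

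**Figure D1:**
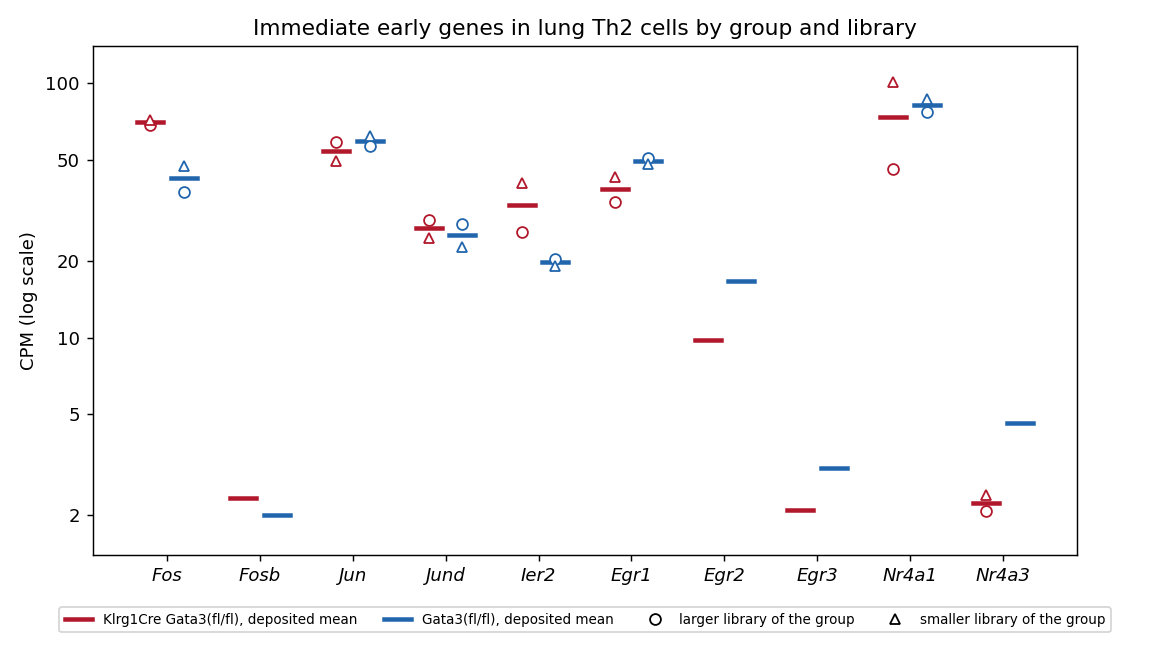
Level of each gene in CPM on a log axis, Klrg1Cre in red at the left and control in blue at the right of each pair. Bars are deposited group means, circles the larger and triangles the smaller library of a group where the mean could be split. Both Klrg1Cre libraries lie above both control libraries for Fos and Ier2 and below them for Egr1, while the 2 Klrg1Cre libraries of Nr4a1 lie 2.20-fold apart.

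Fos, an AP-1 subunit induced by acute stimulation, had 68.7 CPM in the larger and 71.6 CPM in the smaller Klrg1Cre library, against 37.3 CPM in the larger and 47.3 CPM in the smaller control library. Both Klrg1Cre libraries were therefore above both control libraries, and the gap between groups was wider than that within either. The ratio of the means was 1.66 in the authors' deposited table (unadjusted p = 0.000739, adjusted p = 0.209), rank 42 of 11883 by p. In limma's fit of the split libraries the log2 difference of Fos was 0.73 (SE 0.15, 95% interval 0.39 to 1.06, adjusted p = 0.162) on the log2(CPM + 1) scale. The 1788 and 1043 reads behind the Klrg1Cre values gave exact Poisson 95% intervals of 65.6 to 72.0 CPM and 67.3 to 76.1 CPM, which cover counting error only.

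Fosb, the second Fos subunit listed, had deposited means of 2.35 CPM in Klrg1Cre compared with 2.00 CPM in control. Its ratio was 1.17 in the authors' deposited table (adjusted p = 0.982), and without a split no spread between libraries can be given for it.

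Jun, the main partner of Fos in AP-1, had 58.6 CPM in the larger and 49.6 CPM in the smaller Klrg1Cre library, against 56.5 CPM in the larger and 62.0 CPM in the smaller control library. The groups overlapped, and the limma log2 difference was -0.13 with a 95% interval of -0.45 to 0.19. Jund, the Jun subunit that many resting cells express, had 29.0 CPM and 24.7 CPM in the larger and smaller Klrg1Cre library and 27.9 CPM and 22.7 CPM in the larger and smaller control library. These groups overlapped too, with a limma log2 difference of 0.09 and an interval of -0.28 to 0.45. An interval that spans 0 does not show that the groups are alike. GENCODE places an antisense RNA gene on the opposite strand over each of these Jun genes, Junos over Jun and Gm11175 over Jund, and strand use in counting is not given in the sources used here.

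Ier2 had 26.0 CPM in the larger and 40.5 CPM in the smaller Klrg1Cre library, against 20.4 CPM in the larger and 19.1 CPM in the smaller control library. The groups did not overlap, yet the Klrg1Cre libraries differed 1.56-fold from each other, whereas the control libraries were 1.07-fold apart. The ratio of the means was 1.68 in the authors' deposited table (unadjusted p = 0.00700, adjusted p = 0.473). The limma log2 difference of Ier2 was 0.69 (SE 0.20, 95% interval 0.24 to 1.14, adjusted p = 0.357). The size of the difference rested on the smaller Klrg1Cre library: the log2 ratio was 0.75 with both and 0.40 without it.

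Egr1, the Egr gene with the most reads, had 34.1 CPM in the larger and 42.9 CPM in the smaller Klrg1Cre library, against 50.7 CPM in the larger and 48.1 CPM in the smaller control library. Both Klrg1Cre libraries were below both control libraries. Its mean was 1.28-fold lower in the authors' deposited table (unadjusted p = 0.0380, adjusted p = 0.679). In limma's fit the log2 difference of Egr1 was -0.36 (SE 0.15, 95% interval -0.70 to -0.02, adjusted p = 0.606).

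Egr2 had deposited means of 9.75 CPM in Klrg1Cre compared with 16.7 CPM in control, 1.71-fold lower in the authors' deposited table (unadjusted p = 0.00888, adjusted p = 0.527). Egr3, which overlaps Egr2 in function in T cells, had means of 2.11 CPM in Klrg1Cre compared with 3.07 CPM in control. Its mean was 1.46-fold lower in the authors' deposited table (adjusted p = 0.873). All 3 Egr genes thus had lower means in Klrg1Cre, although Egr3 was listed with an unadjusted p of 0.409 in the authors' deposited table. Their summed means were 50.4 CPM in Klrg1Cre and 69.2 CPM in control.

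Nr4a3 had the lowest ratio of the 10, with means of 2.24 CPM in Klrg1Cre compared with 4.60 CPM in control, 2.05-fold lower in the authors' deposited table (unadjusted p = 0.00719, adjusted p = 0.483). That place depends on the scale for low values: with a pseudocount of 5 CPM the log2 ratio was -0.41 for Nr4a3 and -0.56 for Egr2, against -1.04 and -0.78 on the deposited means. Its Klrg1Cre mean rested on 54 reads in the larger library, or 2.08 CPM (exact Poisson 95% interval 1.56 to 2.71), and 35 reads in the smaller, or 2.40 CPM (1.67 to 3.34). These intervals cover counting error only, and the spread between the control libraries is unknown.

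Nr4a1, encoding Nur77, a widely used marker of recent antigen receptor signalling, behaved otherwise. It had 46.0 CPM in the larger and 101.1 CPM in the smaller Klrg1Cre library, against 76.9 CPM in the larger and 86.9 CPM in the smaller control library. The 2 Klrg1Cre libraries thus lay on either side of both control libraries. Their 2.20-fold gap was wider than that of all but 0.639% of the 1721 genes of at least 10 CPM whose Klrg1Cre mean could be split, for which the median gap was 1.13-fold. The means differed by a ratio of 0.898 in the authors' deposited table (adjusted p = 0.873), and the limma log2 difference of Nr4a1 was -0.26 with a 95% interval of -0.90 to 0.38. The log2 ratio was -0.83 from the larger Klrg1Cre library alone and 0.30 from the smaller alone, so the group mean of Nr4a1 describes neither library.

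Of the 6 genes split in both groups, 2 had both Klrg1Cre libraries above both control libraries and 1 had both below. Among all 5351 genes split in both groups, 19.3% stood above in this way and 18.3% below, so such a pattern is common here. In limma's fit 0 of the 6 had an adjusted p below 0.05, where 0.165% of the 4242 genes tested did. Without the larger Klrg1Cre library limma called Fos and Ier2, where 1.37% of genes were called, and without the smaller one Fos and Nr4a1, where 1.51% were. Without the larger or the smaller control library it called 0 of the 6, against 0.0% and 0.0236% of genes. The middle 90% of genes of at least 1 CPM ran from -0.58 to 0.57 on the log2 ratio scale, and Fos and Ier2 lay above it and Egr2 and Nr4a3 below it.

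**Figure D2:**
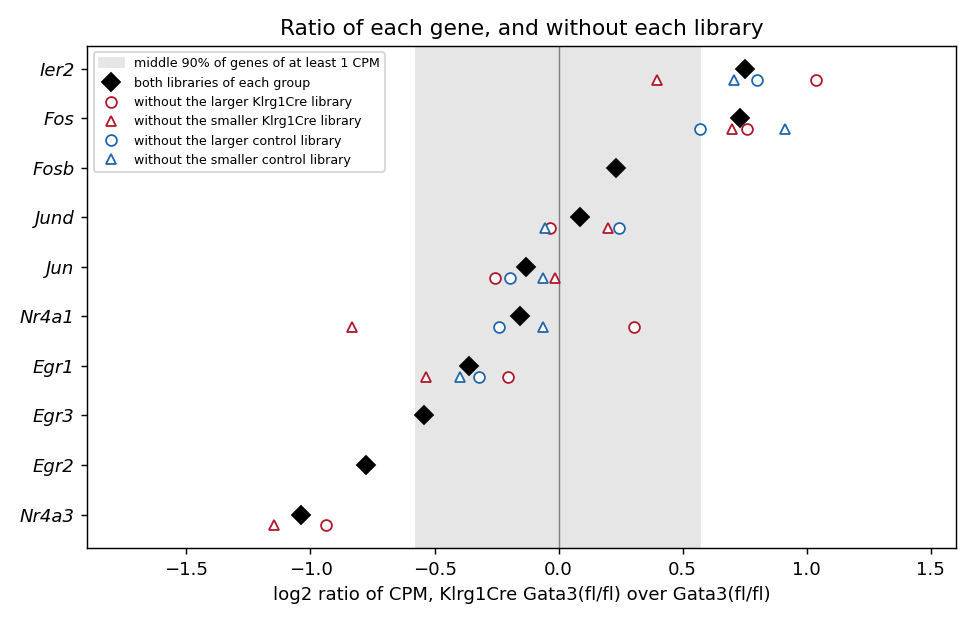
Log2 ratio of CPM, Klrg1Cre over control, for each gene. Diamonds use both libraries of each group, and open symbols leave out the library named in the legend where the mean could be split. The grey band spans -0.58 to 0.57, and Nr4a1 changes sign with the Klrg1Cre library that is left out.

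Levels were compared between genes only after division by transcript length, in CPM per kilobase of GENCODE's first-numbered transcript. On this scale Fos was the highest of the 10 in Klrg1Cre at 33.3, followed by Nr4a1 at 29.7 and Ier2 at 21.9, and the Ier2 libraries, at 17.1 and 26.6, overlapped those of Jun and Jund. In control Nr4a1 came first at 33.1, followed by Fos at 20.1 and Jun at 18.6. The libraries of Fos and Jun overlapped in control. In Klrg1Cre the order of Fos and Nr4a1 does not hold beyond the spread, since the Nr4a1 libraries lay at 18.6 and 40.8. Jun at 17.0 and Jund at 16.1 in Klrg1Cre, and 18.6 and 15.2 in control, were likewise neighbours whose libraries overlapped in Klrg1Cre. Egr1 stood at 8.59 in Klrg1Cre and 11.0 in control, sixth in both groups. Egr2, Egr3, Fosb and Nr4a3 were the lowest, between 0.391 and 3.29 in Klrg1Cre and between 0.529 and 5.63 in control.

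Ratios of the reads of 2 genes within a library do not depend on how libraries were scaled. Fos had 1.17 and 1.44 reads per read of Jun in the larger and smaller Klrg1Cre library, against 0.660 and 0.763 in the larger and smaller control library. Per read of Egr1, Fos had 2.02 and 1.67 reads in the larger and smaller Klrg1Cre library and 0.735 and 0.984 in the larger and smaller control library. Both Fos ratios were thus higher in both Klrg1Cre libraries than in both control libraries. Ier2 had 0.763 and 0.944 reads per read of Egr1 in the larger and smaller Klrg1Cre library and 0.401 and 0.398 in control. Fos and Ier2 kept no such order against each other: their ratio was 2.64 and 1.77 in Klrg1Cre and 1.83 and 2.47 in control, and the groups overlapped. Of the 15 pairs of these 6 genes, 10 did not overlap between the groups, and among all pairs of split genes of at least 1 CPM 38.0% did not. The pairs share genes and libraries, so they are not independent of each other. Fos and Ier2 lay above and Egr1 below in both Klrg1Cre libraries, so the ratios of Fos and Ier2 to Egr1 had to separate and add nothing to those values. Jun and Jund separated narrowly, at 2.02 and 2.01 in the larger and smaller Klrg1Cre library against 2.03 and 2.73 in the larger and smaller control library.

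**Figure D3:**
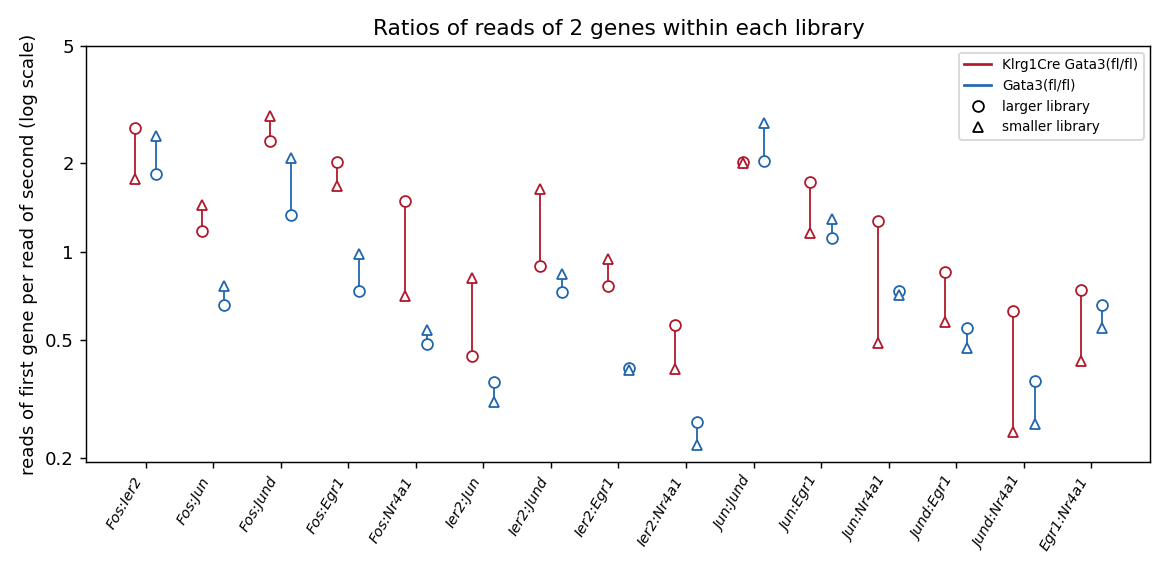
Reads of the first gene per read of the second within each library, on a log axis, for all 15 pairs of the 6 split genes, with Klrg1Cre in red at the left and control in blue at the right. Lines join the 2 libraries of a group. The ratios of Fos and those of Ier2 to Jun, Jund, Egr1 and Nr4a1 are higher in both Klrg1Cre libraries than in both control libraries. Among all pairs of split genes of at least 1 CPM, 38.0% did not overlap between the groups.

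Other genes of the rapid response stood in both directions. Of 28 listed, 19 had higher means in Klrg1Cre and 9 lower, with a median log2 ratio of 0.15, and 0 passed the adjustment over all genes in the authors' deposited table. At an unadjusted p below 0.05 in the authors' deposited table there were 3 higher and 2 lower, against 3.72% and 3.37% of all genes. Plk2, encoding a polo-like kinase, had 4.69 CPM and 3.78 CPM in the larger and smaller Klrg1Cre library and 1.29 CPM and 1.25 CPM in the larger and smaller control library. Gadd45b, a stress-induced activator of MAP kinase signalling, had 19.2 CPM and 20.5 CPM in Klrg1Cre against 11.1 CPM and 16.5 CPM in control. Sik1, encoding a salt-inducible kinase, had 2.57 CPM and 3.64 CPM in Klrg1Cre against 6.26 CPM and 5.19 CPM in control, and Trib1, a pseudokinase gene, had 5.84 CPM and 6.04 CPM in Klrg1Cre against 9.23 CPM and 9.10 CPM in control. For these 4 genes the adjusted p in the authors' deposited table lay between 0.209 and 0.625. The most reads in the list fell on Nfkbia, encoding the NF-kappaB inhibitor, at 118.0 CPM and 177.5 CPM in Klrg1Cre against 117.1 CPM and 142.1 CPM in control.

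The other AP-1 and related subunits had a median log2 ratio of 0.07 over 13 of 14 listed, with 7 higher and 6 lower means and 0 at an unadjusted p below 0.05 in the authors' deposited table. Junb, the Jun gene with the most reads, had 294.4 CPM in the larger and 451.9 CPM in the smaller Klrg1Cre library, against 276.1 CPM and 322.4 CPM in the larger and smaller control library. The smaller Klrg1Cre library was thus the higher one for Junb, as for Fos, Ier2, Egr1, Nr4a1 and Nr4a3 but not for Jun and Jund. It was the higher one for 4 of the 10 split genes of this list and 13 of 21 of the rapid response list. Among the 1721 genes of at least 10 CPM split in Klrg1Cre, it was the higher one for 54.7%. Atf3 and Mafg lay the other way, at 18.5 CPM and 9.49 CPM in the larger and 7.07 CPM and 3.50 CPM in the smaller Klrg1Cre library. The Maf family gene Mafk had 13.9 CPM and 11.8 CPM in Klrg1Cre and 10.2 CPM and 9.70 CPM in control, with an adjusted p of 0.729 in the authors' deposited table. Of the remaining Egr and Nr4a genes, Nr4a2 had means of 0.593 CPM in Klrg1Cre compared with 0.662 CPM in control. Nab2 and Nab1, which encode corepressors that bind Egr proteins, had means of 9.13 CPM and 5.80 CPM in Klrg1Cre and 6.57 CPM and 7.63 CPM in control. These 3 of 4 listed genes had a median of -0.16, with 1 higher and 2 lower means and 0 at an unadjusted p below 0.05 in the authors' deposited table.

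Upstream kinases and factors had a median log2 ratio of 0.04 over 22 listed genes, with 12 higher and 10 lower means. At an unadjusted p below 0.05 in the authors' deposited table there was 1 higher and there were 2 lower, against 3.72% and 3.37% of all genes. Srf, encoding serum response factor, had 8.99 CPM and 10.2 CPM in Klrg1Cre against 9.08 CPM and 8.42 CPM in control. Crem, encoding a cyclic AMP response modulator, averaged 12.6 CPM in Klrg1Cre and 19.9 CPM in control, with an adjusted p of 0.551 in the authors' deposited table. Factors that bind AU-rich elements and speed the decay of unstable transcripts, with related regulators, had a median of -0.10 over 10 listed, with 4 higher and 6 lower means. Zfp36l1, of this group, had 33.6 CPM and 54.5 CPM in the larger and smaller Klrg1Cre library and 76.0 CPM and 89.1 CPM in the larger and smaller control library, with an adjusted p of 0.268 in the authors' deposited table. It was the only member of that list at an unadjusted p below 0.05, where 3.37% of all genes were lower. Zfp36 itself had means of 28.5 CPM in Klrg1Cre compared with 26.9 CPM in control.

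T cell genes that have been linked to Egr2, Egr3 or Nr4a activity had lower means in Klrg1Cre for 14 of 20 and higher means for 6, with a median log2 ratio of -0.11. At an unadjusted p below 0.05 in the authors' deposited table there were 3 lower and 1 higher, against 3.37% and 3.72% of all genes. After adjustment 0 passed. Tnfrsf9, the costimulatory receptor 4-1BB, had means of 11.4 CPM in Klrg1Cre compared with 29.3 CPM in control (adjusted p = 0.321 in the authors' deposited table). Ikzf2, encoding Helios and also a regulatory T cell marker, had 10.8 CPM and 22.2 CPM in the larger and smaller Klrg1Cre library and 26.5 CPM and 39.2 CPM in the larger and smaller control library. Cblb, a ubiquitin ligase that dampens T cell activation, had 12.2 CPM and 9.48 CPM in Klrg1Cre against 14.1 CPM and 15.9 CPM in control. Pdcd1, encoding PD-1, went the other way at 265.6 CPM and 275.5 CPM in Klrg1Cre against 167.1 CPM and 229.6 CPM in control.

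**Figure D4:**
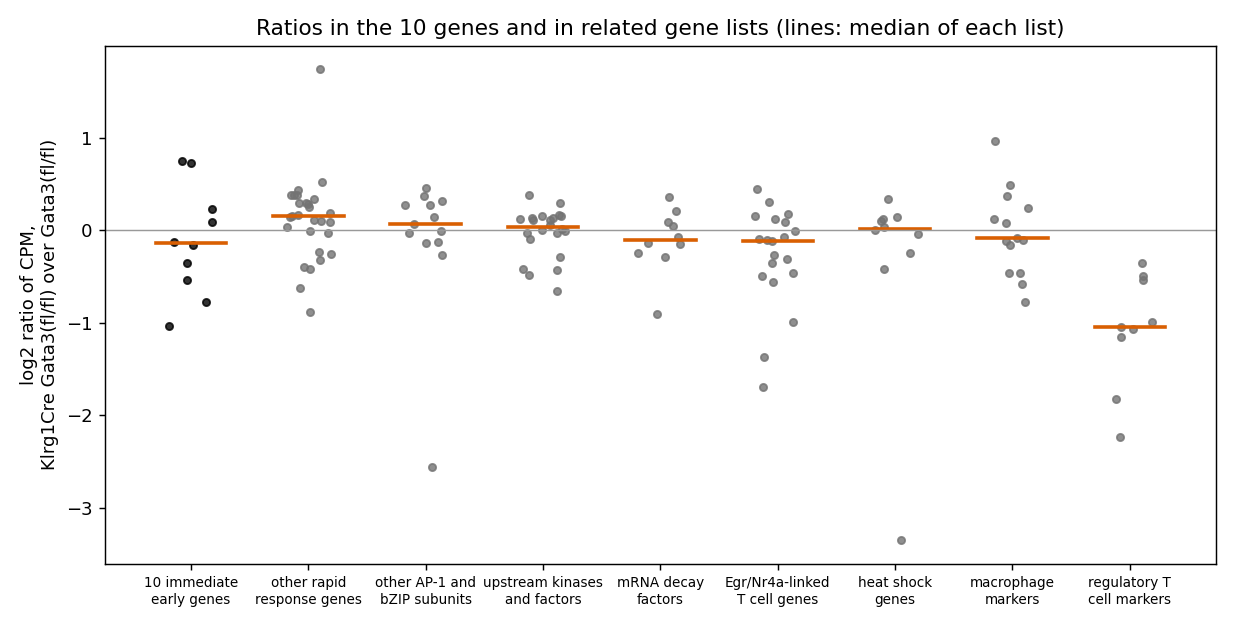
Log2 ratio of CPM, Klrg1Cre over control, for the 10 genes (black) and for genes of related lists (grey), with the median of each list as an orange line. Marco, listed at 0 in control, is left out of the points and kept in the median. The 10 genes spread from -1.04 to 0.75 around a median of -0.14, and the regulatory T cell markers have a median of -1.05.

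Markers of other cells and of handling stood beside these values, and their part in the results was not tested. In bulk samples, fewer cells of a type and less RNA per cell cannot be told apart. Regulatory T cell markers had lower means in Klrg1Cre for 9 of 9, with summed means of 329.8 CPM in Klrg1Cre compared with 622.6 CPM in control. In the authors' deposited table, 8 of the 9 were lower at an unadjusted p below 0.05, against 3.37% of all genes. Of these, 1 also passed an adjusted p of 0.05 over all genes in the authors' deposited table, where 0.0589% of all genes did. It was the integrin gene Itgae, at 42.8 CPM in Klrg1Cre and 150.9 CPM in control (adjusted p = 0.00949 in the authors' deposited table). The lineage factor gene Foxp3 had means of 50.6 CPM in Klrg1Cre compared with 104.6 CPM in control, and regulatory T cells are known to express Nr4a genes and Egr2. The 15 listed macrophage and monocyte markers, from cells that also express Fos and Egr genes, had 7 higher and 8 lower means and a median of -0.09. They summed to 1953 CPM in Klrg1Cre and 2751 CPM in control. Chil3 carried that difference, at 1124 CPM in Klrg1Cre and 1932 CPM in control, and the other 14 summed to 828.5 CPM in Klrg1Cre and 818.9 CPM in control. Adgre1 and Mrc1 were at 1.88 CPM and 1.98 CPM in Klrg1Cre and 2.60 CPM and 2.72 CPM in control, whereas Siglecf and Cd14 were at 1.91 CPM and 11.7 CPM in Klrg1Cre and 0.977 CPM and 9.09 CPM in control. Marco had 0.303 CPM in Klrg1Cre and was listed at 0 in control. T cell markers, listed for 10 of 11, had a median of -0.01 and summed means of 1373 CPM in Klrg1Cre compared with 1336 CPM in control. Without Gata3, which the genotype targets, the other 9 summed to 1079 CPM in Klrg1Cre and 1115 CPM in control.

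Markers of B cells summed to 5.57 CPM in Klrg1Cre and 6.78 CPM in control over 5 of 7 listed, with Ms4a1 listed at 0 in Klrg1Cre. Those of neutrophils and granulocytes summed to 10.1 CPM in Klrg1Cre and 6.72 CPM in control over 4 of 8 listed. Those of endothelial, epithelial and stromal cells summed to 27.4 CPM in Klrg1Cre and 20.8 CPM in control over 5 of 8 listed, with 4 higher means and 1 lower. Pecam1 held 17.7 CPM and 12.1 CPM of these sums, whereas Epcam was lower, at 0.921 CPM in Klrg1Cre and 2.78 CPM in control. At an unadjusted p below 0.05 in the authors' deposited table this list held 2 higher and 1 lower, against 3.72% and 3.37% of all genes. The median log2 ratios of these 3 lists were -0.67, 0.40 and 0.55. Heat shock genes, which tissue digestion also raises, had a median of 0.02 over 10 listed, with 5 higher and 5 lower means. Their summed means were 616.5 CPM in Klrg1Cre compared with 613.0 CPM in control, of which the abundant Hspa8 held 310.8 CPM and 320.3 CPM. Those sums therefore say little about the less abundant genes of the list. The exception among the heat shock genes was Hspa1a at 0.438 CPM in Klrg1Cre and 4.47 CPM in control, with an adjusted p of 0.0980 in the authors' deposited table. Hspa1a shares nearly all of its sequence with Hspa1b, so the division of reads between them is uncertain, and Hspa1b had 0.165 CPM in Klrg1Cre and 0.220 CPM in control.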

How the data were processed

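RNA was sequenced from sorted lung Th2 cells, 2 samples per genotype. Per the submitters' processing notes, STAR and Partek were used with mouse build mm9; versions and the model behind the p-values are not given in the sources used here. Per the file headers, the single deposited table holds group means (in CPM, with an offset of 0.0001), the authors' p-values, a ratio, the same fold as a signed score, and a deposited signal called total counts that equalled 2 times the sum of both means in all 11883 rows. Dividing the means gave the deposited ratio in every row, and a Benjamini-Hochberg adjustment of the p-values over 11883 genes gave the deposited adjusted ones.

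A gene counts as changed at an adjusted p below 0.05 over all genes; no test was run on the means. Library totals were found from low means that are whole multiples of 1 read, and each mean up to 20000 CPM was then split into whole reads of both libraries (tolerance 1e-09 reads), which succeeded for 49.0% of genes in Klrg1Cre, 47.0% in control and 45.0% in both. In simulated means of 11883 genes the split recovered 100% of genes with whole reads and gave 0 wrong splits. Since most genes could not be split, no count model was fitted. limma 3.58.1 in R 4.3.3, with a trended variance, was run on log2(CPM + 1) of the 4242 split genes of at least 1 CPM, and its p-values ranked genes nearly as the authors' did (Spearman rho 0.998 across genes, which are not independent replicates). Exact Poisson intervals (95%) cover counting error only. Promoter sequences and transcript lengths came from RefSeq and GENCODE tables on GRCm38, matched by symbol, and no coordinate was moved between builds.

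The 10 genes and all gene lists were chosen with earlier results of these data known. All 10 are named whatever their values. Of each list, the rule was to name at most the 4 genes with the smallest p and the most abundant one. A few others (Srf, Zfp36, Foxp3, Marco, Ms4a1, Adgre1, Mrc1, Nr4a2, Nab1 and Hspa1b) were named for their role after their values were seen. Atf3 and Mafg were named, also after their values were seen, for the difference between their Klrg1Cre libraries. The pairs of genes and the motifs were also chosen after the data were seen. A result for 1 gene of the list of upstream kinases and factors is not reported here.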

Additional observations from a re-analysis of the deposited data

How the results depend on the processing

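None of the 10 genes passed an adjusted p of 0.05 with the authors' p-values adjusted again over genes of at least 1 CPM or at least 5 CPM (7 of the 10 genes left), nor with limma on the 6 split genes. In limma's fit of all libraries 3 of the 6 had an unadjusted p below 0.05, where 334 of the 4242 genes tested did. When limma was run without each library in turn, the number called ranged from 0 to 2. Without the larger Klrg1Cre library these were Fos (adjusted p = 0.0234) and Ier2 (adjusted p = 0.00540), both higher; without the smaller one, Fos (adjusted p = 0.0388), higher, and Nr4a1 (adjusted p = 0.00581), lower. In these fits the lone Klrg1Cre library is assumed to vary like the control libraries, and 1.37% and 1.51% of all split genes were called, against 0.165% with all libraries. Without either control library 0 of the 6 were called. Over the limma fits the adjusted p of Fos ranged from 0.0234 to 0.610. Pseudocounts of 1 and 5 CPM and both rescalings changed the sign of 0 of 40 log2 ratios; the rescalings shifted all ratios by -0.03 and -0.01. A pseudocount of 5 CPM brought the ratio of Nr4a3 to -0.41 against -1.04, that of Egr2 to -0.56 against -0.78, and that of Egr3 to -0.18 against -0.54. Leaving out a library turned the sign of Nr4a1 (-0.83 to 0.30) and Jund (-0.05 to 0.24) and kept that of Fos (0.57 to 0.91), Ier2 (0.40 to 1.04), Egr1 (-0.54 to -0.20), Jun (-0.26 to -0.02) and Nr4a3 (-1.15 to -0.94, Klrg1Cre libraries only). The median of the genes ranged from -0.06 to 0.02 over the genes that could be split, and was -0.02 over those 6 with all libraries, a setting added after the data were seen. Fosb, Egr2 and Egr3 could not be tested this way. No paired analysis was possible because the table holds group means and its columns carry no replicate numbers.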
